A study of Mus musculus with 8 samples.

Results

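Transcripts of 10 genes of the amino acid starvation response were followed in mouse sperm and epididymis: Eif2ak4, Atf4, Atf3, Ddit3, Trib3, Chac1, Sesn2, Asns, Psat1 and Slc7a11. They were found by gene symbol among the 19411 genes that the arrays name, each had 1 probe set, and all 10 passed the filter on low signal that left 13587 genes for testing. The study examined how a father's diet relates to the RNA of his sperm. Arrays came from C57/Bl6 mice, 1 array for each RNA sample, with 3 arrays of sperm from males on a control diet, 2 from males on a low protein diet and 1 from a male or males under caloric restriction. A further 2 arrays held epididymal tissue, 1 for the control diet and 1 for the low protein diet. Control and low protein males were kept on their diet until 9 to 12 weeks of age and then housed briefly with females. No age or handling of its own is given for caloric restriction, so these cannot be told apart from that diet. The labels do not say whether a sample was 1 animal or a pool. Sperm came from the cauda and were described as more than 99.5% pure under the microscope, with preparations rejected where PCR found Actb or Myh11.

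When an amino acid runs short, uncharged transfer RNAs activate the kinase GCN2, the product of Eif2ak4. GCN2 phosphorylates the initiation factor eIF2, which slows general translation but favours translation of the Atf4 message. The ATF4 protein then raises transcription of genes for amino acid synthesis and uptake, of further stress factors, and of proteins that end or limit the response. ATF4 is controlled largely at translation, so its message level is an incomplete measure of its activity, and mature sperm are regarded as transcriptionally quiet, so the RNA they carry was mostly made earlier or acquired in the epididymis.

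ATF4 acts through a short promoter sequence, the amino acid response element, whose core is usually written TGATGNAA, or TTNCATCA on the other strand. RefSeq promoter windows of GRCm38.p6, from 250 bases before to 50 bases after a start site, were available for all 10 genes (12 windows) and were searched for this core on both strands. It was present in 5 of the 10 genes, Atf3, Chac1, Trib3, Slc7a11 and Asns, against 4.51% of the 27025 genes in the promoter table and 3.97% of its 32851 windows of the same length. The 10 genes were chosen as genes of the response that ATF4 drives, so their higher share is not a finding of enrichment. The cyclic AMP response element TGACGTCA, which reads the same on both strands and shares no full match with the first core, was in 0 of the 10 genes and in 2.03% of all genes (1.79% of windows). The stretches upstream of 4 of these genes are printed because they carry the core; capitals mark it and each stretch runs 5′ to 3′ on the gene's strand.
Atf3: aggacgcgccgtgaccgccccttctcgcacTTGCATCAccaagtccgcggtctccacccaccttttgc
Chac1: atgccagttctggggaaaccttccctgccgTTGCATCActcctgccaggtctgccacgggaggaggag
Slc7a11: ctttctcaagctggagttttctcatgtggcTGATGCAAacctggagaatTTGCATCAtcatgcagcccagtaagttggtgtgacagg
Asns: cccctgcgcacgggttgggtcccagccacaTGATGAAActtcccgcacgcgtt

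The Atf3 stretch is chr1:191183406-191183473 on the minus strand, with the core at positions -110 to -103 counted from the start site. The Chac1 stretch is chr2:119351019-119351086 on the plus strand, with the core at -193 to -186. The Slc7a11 stretch is chr3:50443623-50443709 on the minus strand and holds the core in both orientations, at -66 to -59 and at -47 to -40. The Asns stretch is chr6:7693210-7693262 on the minus strand, with the core at -23 to -16. In Trib3 the core lay after the start site, from position 15 to 22, and that stretch is not shown. These matches describe the letters of the windows only. A gene without a match in its window may hold the element elsewhere.

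The arrays were checked before any member was compared. Among the sperm arrays, low protein replicate 2 stood apart, with correlations of 0.71 to 0.86 with the other 5 over all tested genes, and the low protein and combined diet differences of the 10 genes are given with and without it. The sperm label matched the transcripts of late spermatids: Odf1, an outer dense fibre gene of the tail, lay between 12.92 and 13.57 (log2 intensity) on the 6 sperm arrays and at 10.44 and 10.46 in epididymis. The sperm arrays nevertheless had signal for both genes of the PCR check. Actb lay between 10.49 and 11.61 in sperm and at 12.50 and 12.67 in epididymis. Myh11, a smooth muscle myosin, lay between 7.09 and 8.13 in sperm and at 11.77 and 11.79 in epididymis. Gpx5, a secreted epididymal peroxidase, lay between 4.49 and 6.06 in sperm and at 6.84 and 7.25 in epididymis. Its sperm values were near or below the filter level of 5.69 and do not show that it was present there. The mean of the 14 tested of 19 epididymal epithelium markers was 8.60 to 8.81 on the control sperm arrays, 8.37 and 7.62 on low protein replicates 1 and 2, and 8.13 under caloric restriction. The mean of 14 late spermatid markers ran the other way, at 9.55 to 9.91 in control, 10.34 and 10.72 in low protein and 10.65 under caloric restriction. Of 8 earlier germ cell markers 5 were tested, and their mean was 6.34 to 6.56 in control sperm, 7.14 and 7.45 in low protein sperm, 8.04 under caloric restriction and 4.69 and 4.86 in epididymis. Other tissue markers did not all go with the epithelium: 8 leukocyte markers had a median difference of 0.20 under low protein and 0.13 under caloric restriction, and 7 fibroblast and matrix markers one of -0.40 and -0.01. Median differences of 10 smooth muscle markers were -0.41 and -0.32, and of 3 endothelium markers -0.04 and -0.33. The part of the epithelium and germ cell markers in the results below was not tested. Fewer cells of a type and less RNA per cell cannot be told apart in such bulk samples.

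**Figure D1:**
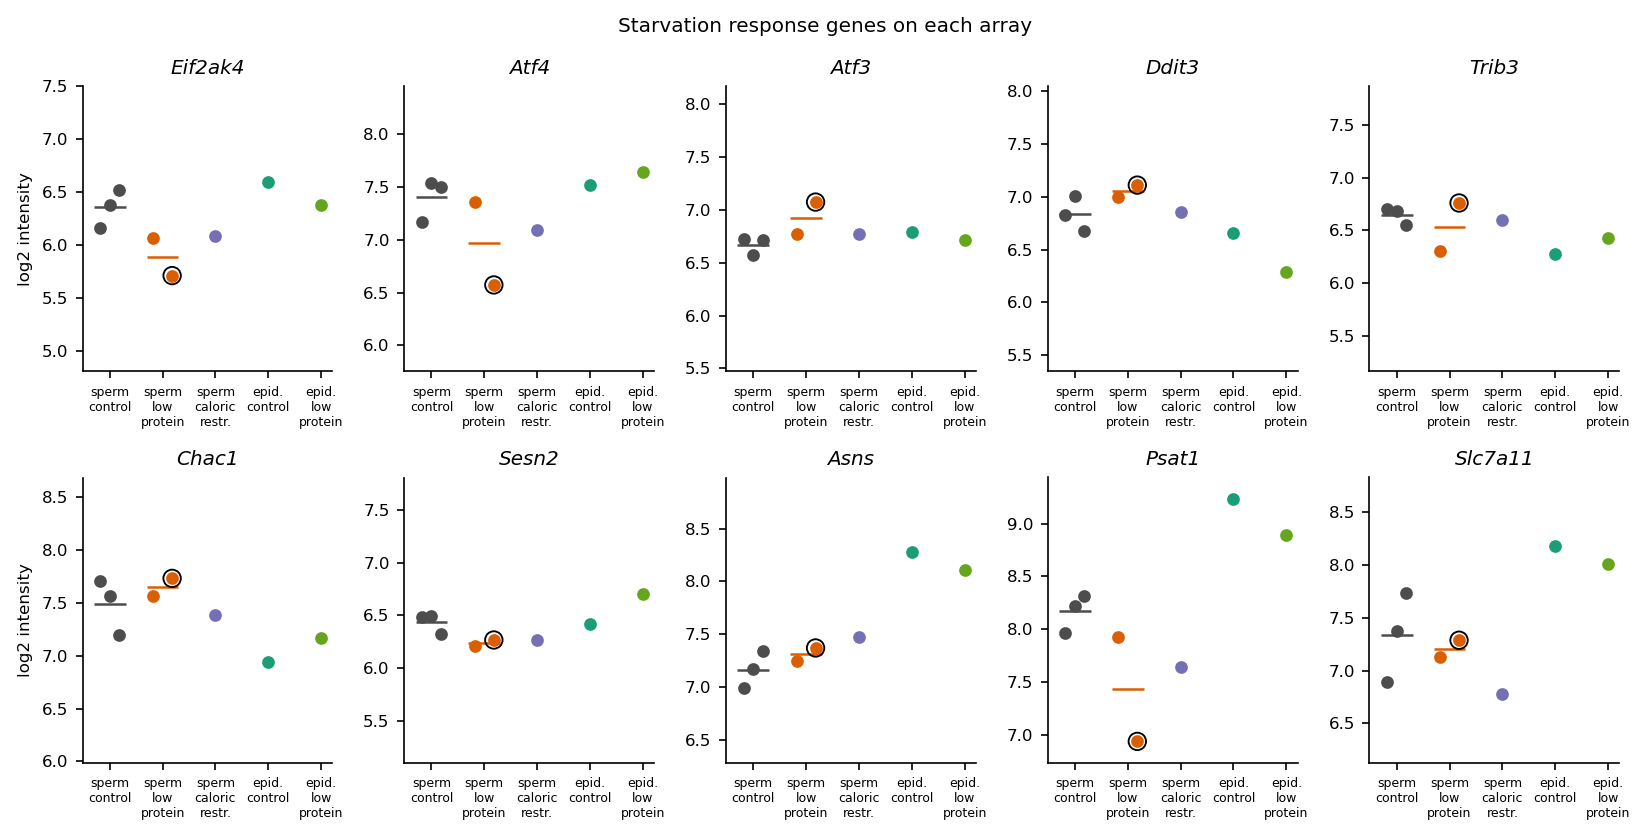
Log2 intensity of each of the 10 genes (vertical axes, own range per gene but equal height in log2 units) on every array, by tissue and diet (horizontal axes); points are arrays, short lines are means of groups with more than 1 array, and the ringed point is low protein sperm replicate 2. Asns, Psat1 and Slc7a11 are higher on both epididymis arrays than on all 6 sperm arrays, and the low protein mean of Psat1 and Atf4 is pulled down by the ringed array.

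No rise of the starvation response genes was detected in low protein sperm. The kinase message, the factor message and the serine synthesis gene Psat1 had the 3 largest differences, all toward lower values in low protein sperm, and Asns, a common read-out of the response, differed by less than its standard error. None of the 10 genes passed the test (limma, adjusted p under 0.05 over 13587 genes), and 0 of 13587 genes did (0% called), where the smallest adjusted p was 0.0847. At an unadjusted p under 0.05 there were 2 of the 10 genes and 3406 of all genes (25.1%). The median difference was -0.12 over the 10 genes and -0.06 over all genes tested, on the log2 scale, where 1 is a doubling.

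Eif2ak4 encodes the sensor. Its log2 intensity was 6.16, 6.38 and 6.52 in control sperm, 6.06 and 5.71 in low protein sperm, 6.09 in caloric restriction sperm, and 6.60 and 6.38 in control and low protein epididymis. All 3 restricted sperm arrays were below all 3 control arrays. The low protein difference was -0.47 ± 0.19 (SE; 2 and 3 arrays; 95% interval -0.91 to -0.03), with an unadjusted p of 0.0390 and an adjusted p of 0.184 by limma. With low protein replicate 2 left out it was -0.29 (adjusted p 0.612), and with replicate 1 left out it was -0.65 (adjusted p 0.0217).

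Atf4 encodes the transcription factor at the centre of the response. Its levels were 7.17, 7.54 and 7.50 in control sperm, 7.36 and 6.57 in low protein sperm, 7.09 in caloric restriction sperm, and 7.52 and 7.64 in epididymis. Low protein replicate 1 lay within the control range and replicate 2 was the lowest array of all. The low protein difference was -0.43 ± 0.25 (95% interval -1.02 to 0.15; adjusted p by limma 0.314). With replicate 1 left out it was -0.83 (adjusted p 0.00647), and with replicate 2 left out it was -0.04 (adjusted p 0.958), so its size was set by replicate 2.

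Atf3 and Ddit3 encode further transcription factors induced downstream, the latter the pro-apoptotic factor CHOP. Atf3 lay at 6.73, 6.57 and 6.71 in control sperm, at 6.78 and 7.08 in low protein sperm, at 6.77 under caloric restriction, and at 6.79 and 6.71 in epididymis. The restricted sperm arrays were all above the control arrays, the nearest by less than the spread of the controls, and the low protein difference was 0.25 ± 0.17 (adjusted p by limma 0.379). Ddit3 lay at 6.82, 7.01 and 6.67 in control sperm, 6.99 and 7.11 in low protein sperm, 6.85 under caloric restriction, and 6.66 and 6.29 in epididymis. Its low protein and control arrays overlapped, and the difference was 0.22 ± 0.17 (adjusted p 0.457).

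Trib3, Chac1 and Sesn2 act as brakes or effectors of the response. Trib3, a pseudokinase that binds ATF4 and restrains it, was at 6.70, 6.68 and 6.55 in control sperm, 6.30 and 6.76 in low protein sperm, 6.60 under caloric restriction, and 6.27 and 6.42 in epididymis. The low protein arrays lay on either side of the control range, and the difference of -0.11 ± 0.19 (adjusted p by limma 0.747) turned to 0.12 without replicate 1. Chac1, which degrades glutathione, was at 7.71, 7.57 and 7.20 in control sperm, 7.57 and 7.73 in low protein sperm, 7.39 under caloric restriction, and 6.94 and 7.17 in epididymis. Its low protein arrays overlapped the controls, with a difference of 0.16 ± 0.20 (adjusted p 0.649). Sesn2, which links amino acid shortage to lower mTORC1 activity, was at 6.49, 6.49 and 6.33 in control sperm, 6.21 and 6.27 in low protein sperm, 6.26 under caloric restriction, and 6.41 and 6.70 in epididymis. The restricted sperm arrays were all below the controls, by a low protein difference of -0.20 ± 0.16 (adjusted p 0.463).

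Asns, Psat1 and Slc7a11 are the metabolic outputs. Asns encodes asparagine synthetase, and its levels were 6.99, 7.17 and 7.34 in control sperm, 7.25 and 7.37 in low protein sperm, 7.48 under caloric restriction, and 8.28 and 8.11 in epididymis. Low protein and control sperm overlapped, and the difference was 0.14 ± 0.17 (95% interval -0.26 to 0.54; adjusted p by limma 0.642). Psat1 encodes phosphoserine aminotransferase of serine synthesis, at 7.97, 8.22 and 8.31 in control sperm, 7.92 and 6.94 in low protein sperm, 7.64 under caloric restriction, and 9.24 and 8.90 in epididymis. All 3 restricted arrays were below the controls, replicate 1 of low protein by a small margin and replicate 2 by a large one. Its low protein difference of -0.74 ± 0.28 (95% interval -1.39 to -0.08; unadjusted p 0.0318, adjusted p 0.175) was the largest among the 10 genes. Slc7a11 encodes the cystine transporter xCT, at 6.89, 7.38 and 7.74 in control sperm, 7.13 and 7.29 in low protein sperm, 6.77 under caloric restriction, and 8.18 and 8.01 in epididymis. Both low protein arrays lay inside the control range, and the difference of -0.13 ± 0.25 (adjusted p 0.791) turned to 0.04 after cyclic loess normalization.

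Values of the low protein arrays lay wholly outside the control range for 4 of the 10 genes, Atf3 above and Sesn2, Eif2ak4 and Psat1 below, against 41.1% of all genes tested. The upper end of the 95% interval was at most 0.65, that of Atf3, so a doubling lay outside the interval of each of the 10 genes in this fit. Intervals for the fits without single arrays are not given. Much of the spread came from low protein replicate 2, which was the lowest of the 6 sperm arrays for 3 of the genes and the highest for 4, and for 34.0% and 29.1% of all genes. With either low protein array left out, the other stood alone, and the spread within groups came from the 3 control arrays only. Without replicate 1 the largest differences from control were toward lower values, at -1.23 for Psat1, -0.83 for Atf4 and -0.65 for Eif2ak4. Without low protein replicate 2 none of the 10 genes passed, and neither did any of the 13587. Psat1 then differed by -0.25 (adjusted p by limma 0.671). The values toward higher levels became 0.10 for Atf3, 0.16 for Ddit3, 0.08 for Chac1 and 0.08 for Asns. Those toward lower levels became -0.34 for Trib3, -0.23 for Sesn2 and -0.20 for Slc7a11.

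**Figure D2:**
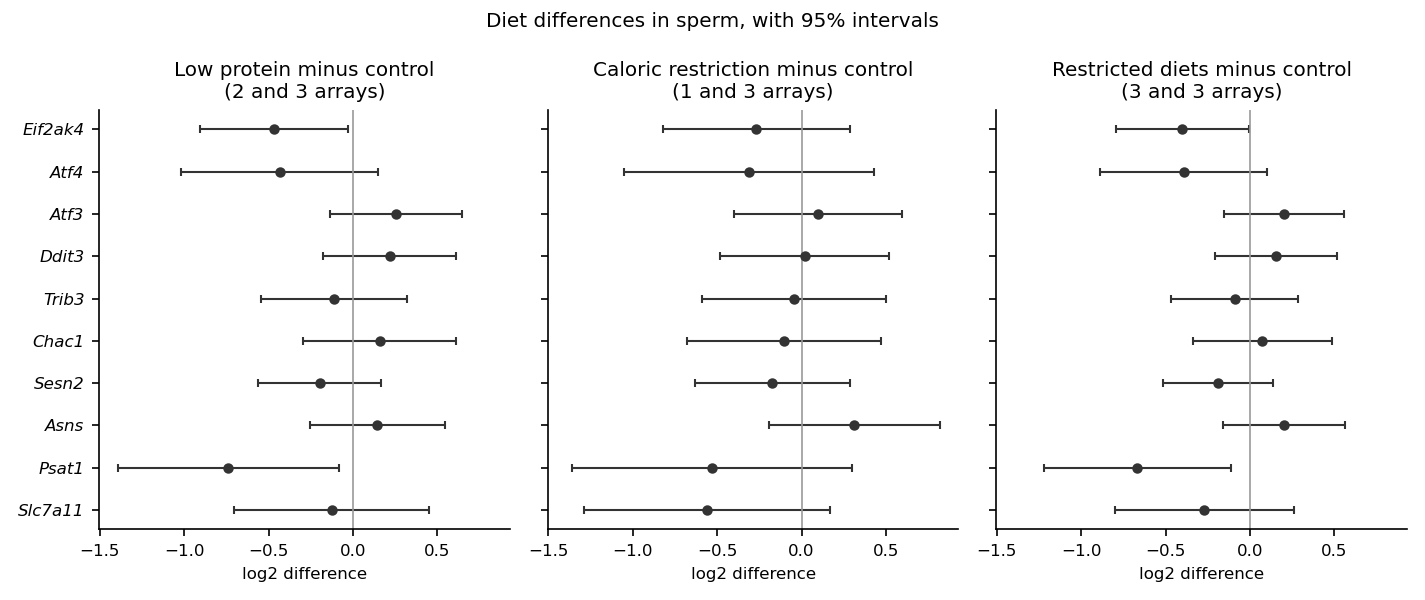
Log2 difference from control sperm (horizontal axes) of each gene under low protein, caloric restriction and both restricted diets together; points are the fitted differences and bars their 95% intervals. Only the intervals of Psat1 and Eif2ak4 leave out 0, in the low protein and the combined comparison, and neither passes after adjustment over all genes.

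Caloric restriction sperm, on 1 array, gave no detectable rise of these genes either, and its largest differences were in Slc7a11 and Psat1 toward lower values. None of the 10 genes passed the test, while 756 of 13587 genes did (5.56% called, 751 of them higher). Of all genes 16.6% had an unadjusted p under 0.05, and 0 of the 10 did. Slc7a11 differed by -0.56 ± 0.32 (SE; 1 and 3 arrays; 95% interval -1.29 to 0.17; adjusted p by limma 0.409) and was below all 3 controls. Psat1 differed by -0.53 ± 0.36 (adjusted p 0.486), also below all 3. Atf4 differed by -0.31 ± 0.32 and Eif2ak4 by -0.27 ± 0.24, both below all 3 controls. Sesn2 was below all 3 as well, and Atf3 above all 3. How many of all genes lay outside the control range on this 1 array was not counted. Such placements therefore do not set these genes apart. Asns was above all 3 controls, by 0.31 ± 0.22 (95% interval -0.19 to 0.82; adjusted p 0.499). The other 5 genes lay between -0.17 ± 0.20 for Sesn2 and 0.10 ± 0.22 for Atf3, with Trib3 at -0.05 and Chac1 at -0.10, and these last 2 turned to 0.06 and 0.02 after cyclic loess normalization. The median was -0.14 over the 10 genes and -0.11 over all genes.

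Set together against the same control arrays, the 3 restricted diet arrays gave 0 of 10 genes past the test, against 373 of 13587 (2.75% called). Because these comparisons share the control arrays, and this one also holds the arrays of both diets, they are not separate evidence. Psat1 differed by -0.67 ± 0.25 (SE; 3 and 3 arrays; 95% interval -1.22 to -0.11; unadjusted p 0.0233, adjusted p by limma 0.139). Eif2ak4 differed by -0.40 ± 0.17 (unadjusted p 0.0459, adjusted p 0.182) and Atf4 by -0.39 ± 0.22 (adjusted p 0.284). Toward higher values, Atf3 and Asns each differed by 0.20 ± 0.16 and Ddit3 by 0.15 ± 0.16. Chac1 differed by 0.07 ± 0.18, Trib3 by -0.09 ± 0.17, Sesn2 by -0.19 ± 0.14 and Slc7a11 by -0.27 ± 0.24. With low protein replicate 2 left out none of the 10 passed, with Psat1 at -0.39 (adjusted p by limma 0.206), Eif2ak4 at -0.28 (adjusted p 0.311) and Atf4 at -0.17 (adjusted p 0.545). In that fit Atf3 was at 0.10, Asns at 0.20, Ddit3 at 0.09, Chac1 at -0.01, Trib3 at -0.19, Sesn2 at -0.20 and Slc7a11 at -0.38. The groups did not overlap for 4 of the 10 genes, Atf3 above and Sesn2, Eif2ak4 and Psat1 below, against 33.1% of all genes. An unadjusted p under 0.05 was found for 2 of the 10 genes and 26.4% of all genes.

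The 2 diets were also set against each other in sperm. None of the 10 genes passed, and none of 13587 did (0% called, smallest adjusted p 0.0646), with an unadjusted p under 0.05 for 0 of the 10 and for 1316 genes (9.69%). Low protein minus caloric restriction ran from -0.21 ± 0.38 for Psat1 to 0.43 ± 0.33 for Slc7a11 (95% interval -0.34 to 1.21). Without low protein replicate 2 Psat1 turned to 0.28 and Atf4 from -0.12 to 0.27, while Slc7a11 was at 0.36. With 1 caloric restriction array these intervals are wide, and they do not show that the diets act alike.

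Levels of Psat1, Atf4 and Eif2ak4 followed each other across the 6 sperm arrays. Pearson's r was 0.97 for Atf4 and Psat1 (Spearman's rho 0.89; exact permutation p for r 0.00556, adjusted 0.125 over 45 pairs of the 10 genes; for rho 0.0333, adjusted 0.375). It was 0.95 for Eif2ak4 and Psat1 (rho 0.94; exact permutation p 0.00417, adjusted 0.125; for rho 0.0167, adjusted 0.375), and 0.91 for Atf4 and Eif2ak4 (rho 0.77; exact permutation p 0.0125, adjusted 0.125; for rho 0.103, adjusted 0.572). No pair passed at 0.05 after adjustment. With the 2 arrays farthest from the median left out, low protein replicate 2 among them, r was 0.87, 0.83 and 0.71 for these pairs over 4 arrays. Atf3 ran against the same genes, with r of -0.93 for Psat1, -0.92 for Atf4 and -0.87 for Eif2ak4. Over 4 arrays these were -0.80, -0.41 and -0.84. How many pairs among all genes reached such values was not counted, so they do not set these genes apart. The arrays differ in diet and in tissue transcripts, and the epithelium markers shared the extremes: Psat1, Atf4 and Eif2ak4 were lowest on low protein replicate 2, where the marker mean was lowest, and highest on control replicates 2 and 3, where it was highest. Between these ends Atf4 left the marker order, at 7.17 on control replicate 1 (marker mean 8.60) and 7.36 on low protein replicate 1 (8.37). Eif2ak4 left it by a small margin, at 6.09 on the caloric restriction array (marker mean 8.13) and 6.06 on low protein replicate 1. Smooth muscle markers were also lowest on low protein replicate 2 (6.86), but were at 7.70, 7.65 and 7.49 on control replicates 1, 2 and 3. The part of tissue transcripts in this pattern was not tested. Asns did not share the epithelium marker extremes. Its highest sperm level was on the caloric restriction array and its second highest on low protein replicate 2. The 3 genes outside the pathway lists whose pattern was most like that of Atf4 over the 6 sperm arrays were Isoc1, Phf12 and Chd2, each with r of 0.998, and of 0.993, 0.996 and 0.997 without low protein replicate 2.

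**Figure D3:**
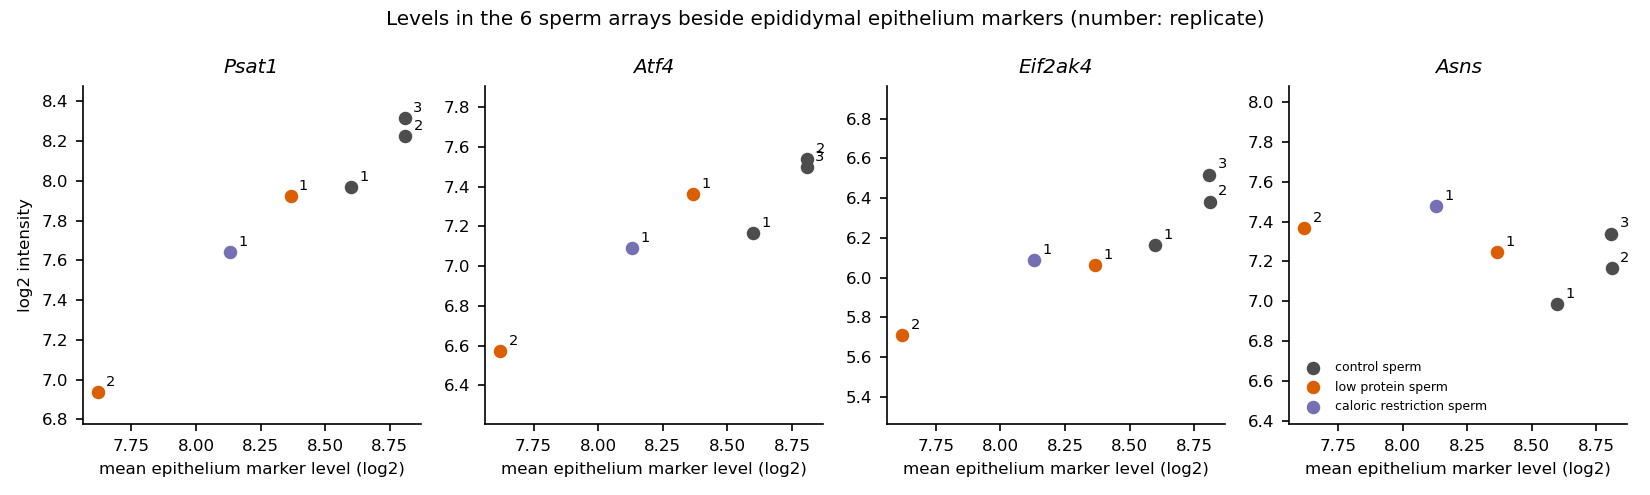
Log2 intensity of Psat1, Atf4, Eif2ak4 and Asns (vertical axes) against the mean log2 intensity of 14 epididymal epithelium markers (horizontal axes) on the 6 sperm arrays; points are arrays, colours are diets and numbers are replicates. Psat1, Atf4 and Eif2ak4 are lowest where the marker mean is 7.62 and highest where it is 8.81, and Asns is not.

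More of the 10 genes passed between the tissues than between the diets, in fits with different numbers of arrays. By size, the low protein difference in sperm exceeded the tissue difference for Atf4 (-0.43 against -0.38), Eif2ak4 (-0.47 against -0.36) and Atf3 (0.25 against 0.03). For the others it was smaller. The metabolic genes Asns, Psat1 and Slc7a11 fell in sperm against epididymis and Chac1 rose, while the kinase and the other regulators did not pass. Tissue was fitted over 8 arrays with diet as a term, and since caloric restriction exists in 1 tissue only, its array is absorbed by its own diet term and 5 sperm and 2 epididymis arrays set the difference. Of the 10 genes 4 passed the test, 1 higher (18.4% of all genes were called higher) and 3 lower (30.1% were called lower), against 6594 of 13587 genes in either direction (48.5% called). With low protein sperm replicate 2 left out 4 of the 10 passed as well. The share of genes that passed was thus no higher among the 10 than over the whole array. Values of sperm and epididymis did not overlap for 5 of the 10 genes, Ddit3 and Chac1 above and Asns, Psat1 and Slc7a11 below, against 60.4% of all genes. The median difference was -0.28 over the 10 genes and -0.08 over all genes. The balance of directions depended on the scaling: 37.9% of called genes were higher in sperm on the deposited values, 52.5% after cyclic loess and 48.1% after quantile normalization, with a median over all genes of -0.08, 0.06 and 0.02.

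Asns was 0.97 ± 0.16 log2 units lower in sperm (SE; a change of -0.97, 95% interval -1.33 to -0.61; adjusted p by limma 0.00143), a 1.96-fold lower intensity. The lowest epididymis value, 8.11, was above the highest of the 6 sperm values, 7.48. It passed under every alternative tried, with changes from -1.11 to -0.63 and adjusted p up to 0.0295.

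Psat1 fell by 1.25 log2 units (-1.25 ± 0.26; adjusted p by limma 0.00425), which is 2.39-fold, and its epididymis arrays at 9.24 and 8.90 were above all sperm arrays, the highest of which was 8.31. With the low protein epididymis array left out, so that 1 epididymis array remained, the change was -1.07 and did not pass (adjusted p 0.0728). After cyclic loess it was -0.72 and after quantile normalization -0.77, and it passed under both (adjusted p 0.00661 and 0.0407).

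Slc7a11 fell by 0.82 log2 units (-0.82 ± 0.22; adjusted p by limma 0.0136), and its highest sperm value of 7.74 was below both epididymis values of 8.01 and 8.18. It did not pass after cyclic loess (-0.52, adjusted p 0.0668) or quantile normalization (-0.50, adjusted p 0.111), nor with either epididymis array left out (adjusted p 0.0961 and 0.0960).

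Chac1 rose by 0.52 ± 0.17 (adjusted p by limma 0.0332), and its lowest sperm value of 7.20 was above the higher epididymis value of 7.17 by a small margin. It kept its direction under each alternative but did not pass with control sperm replicate 1 or 2 left out (adjusted p 0.0692 and 0.0735) or with either epididymis array left out (adjusted p 0.185 and 0.155).

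Ddit3 differed in the same direction, by 0.45 ± 0.18 (adjusted p by limma 0.0619), just short of the threshold. It passed after cyclic loess (0.58, adjusted p 0.0240), with a trend in the variance (adjusted p 0.0477) and with control sperm replicate 3 left out (0.51, adjusted p 0.0496). It did not pass after quantile normalization (adjusted p 0.0625) or with control sperm replicate 1 or 2 left out (adjusted p 0.0975 and 0.121). Its size depended on the epididymis array kept: 0.77 without the control array and 0.18 without the low protein array. The remaining 5 genes did not pass: Atf4 differed by -0.38 ± 0.24 (adjusted p 0.211), Eif2ak4 by -0.36 ± 0.17 (adjusted p 0.105), Trib3 by 0.25 ± 0.17, Sesn2 by -0.20 ± 0.16 and Atf3 by 0.03 ± 0.16. Epididymis also had higher means of the epithelium, smooth muscle, fibroblast and endothelium markers. Smooth muscle markers were at 10.14 and 10.18 against 6.86 to 7.70 in sperm. Leukocyte markers overlapped, at 8.15 and 7.72 in epididymis against 7.54 to 8.15 in sperm, and 2 of 14 epithelium markers were higher in sperm. Which epididymal cells carried the transcripts of the 10 genes was not tested.

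In epididymis the diets could be set side by side on 1 array each, with no test. None of the 10 genes differed by 0.5 or more between low protein and control, against 251 of 13587 genes (1.85% called by that size). Sesn2 was higher under low protein by 0.29, Chac1 by 0.23, Trib3 by 0.15 and Atf4 by 0.12. Ddit3 differed by -0.37, Psat1 by -0.34, Eif2ak4 by -0.22, Slc7a11 by -0.18, Asns by -0.17 and Atf3 by -0.08. Whether low protein acted differently in sperm and in epididymis was tested directly, and 0 of the 10 genes passed, against 0 of 13587 (0% called; smallest adjusted p 0.875; 610 genes, or 4.49%, and none of the 10 had an unadjusted p under 0.05). With 1 epididymis array per diet, that fit took its spread from the control and low protein sperm arrays and assumed the same for epididymis. The difference of differences ran from -0.55 ± 0.47 for Atf4 to 0.59 ± 0.32 for Ddit3 (95% interval -0.14 to 1.32). Without low protein sperm replicate 2 Atf4 was at -0.15 and Ddit3 at 0.53.

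The wider pathway was read from 93 further genes in 8 lists, of which 88 were on the array and 84 were tested. In low protein sperm 0 of the 84 passed (0% of all genes called), and at an unadjusted p under 0.05 2 were higher and 25 were lower, where 25.1% of all genes had such a p in either direction. The median was -0.34 against -0.06 over all genes. The share of all genes with a negative difference, or lower at that p, was not counted. The counts of signs per list, here and below, therefore do not show a trait of the pathway alone. All 8 amino acid transporters tested had negative differences (median -0.49), among them Slc38a2, the neutral amino acid transporter induced by starvation, at -0.91 ± 0.25 (adjusted p by limma 0.111). Slc38a2 lay at 7.41, 7.82 and 8.11 in control sperm, 7.11 and 6.64 in low protein sperm and 7.37 under caloric restriction, with all 3 restricted arrays below the controls. The exchanger Slc1a4 differed by -0.65 ± 0.19, and Slc3a2, the partner chain of xCT, by -0.78 ± 0.25. All 18 aminoacyl-tRNA synthetases, which charge transfer RNAs, were negative (median -0.40), with Wars at -1.04 ± 0.37, Lars at -0.58 ± 0.21 and Gars at -0.56 ± 0.23. All 10 genes of amino acid and one-carbon synthesis were negative (median -0.42), led in order of p by Shmt2, the mitochondrial serine hydroxymethyltransferase, at -1.27 ± 0.45, Cbs at -1.08 ± 0.42 and Bcat1 at -0.45 ± 0.18.

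None of the upstream genes passed in low protein sperm. Of 13 genes for eIF2 kinases and translation control 12 were negative (median -0.37), with Eif2ak3, the kinase PERK, at -0.77 ± 0.27, Impact, an inhibitor of GCN2, at -1.14 ± 0.41, and Gcn1, its co-activator, at -0.49 ± 0.22. Of 14 genes of the endoplasmic reticulum stress response, which reaches ATF4 through PERK, 12 were negative (median -0.66), with the chaperones Pdia4 at -0.99 ± 0.30 and Hspa5 at -0.95 ± 0.30 and the sensor Ern1 at -1.16 ± 0.38. Partner transcription factors (median -0.03, and 0.01 after quantile normalization, 7 genes) and stress outputs (median -0.14, 10 genes) lay nearer 0, with Atf2 at 0.53 ± 0.18 and Ddit4, an mTORC1 inhibitor, at -0.48 ± 0.18. Sestrin and tribbles paralogs had a median of -0.25 over 4 genes, with Sesn3 at 0.39 ± 0.18.

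These low list medians rested in part on low protein replicate 2. Without it they were -0.39 for transporters, -0.13 for synthetases, -0.20 for synthesis genes, -0.15 for kinases and translation control and -0.37 for endoplasmic reticulum stress, beside -0.08 over all genes. Without replicate 1 they were -0.51, -0.67, -0.64, -0.52 and -0.93, and 44 of the 84 pathway genes passed, beside 5155 of all 13587. Cyclic loess brought the 5 medians to -0.29, -0.17, -0.21, -0.18 and -0.13, and quantile normalization to -0.45, -0.39, -0.43, -0.40 and -0.60. The epithelium markers had a median of -0.77 in this comparison, with 14 of 14 negative, and the late spermatid markers one of 0.78, with 14 of 14 positive.

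In caloric restriction sperm 0 of the 84 pathway genes passed (5.56% of all genes called), with 3 higher and 1 lower at an unadjusted p under 0.05 (16.6% of all genes in either direction) and a median of -0.24 against -0.11 over all genes. The genes nearest the threshold went in both directions. Creld2, an endoplasmic reticulum stress gene, differed by 1.01 (adjusted p by limma 0.0599), the cysteinyl-tRNA synthetase Cars by 0.82 (adjusted p 0.0817) and the glycine transporter Slc6a9 by -0.95 (adjusted p 0.0610). Cars was at 7.21, 7.25 and 7.52 in control sperm and at 8.14 under caloric restriction, against 7.24 and 7.07 in low protein sperm. The same control arrays served the low protein comparison, so signs shared by both diets are not separate evidence. All 8 transporters were again negative (median -0.44), as were 9 of 10 synthesis genes (median -0.51), with Mthfd2 at -0.77, and both medians stayed below 0 after cyclic loess (-0.32 and -0.34), where 3 of the 84 genes and 1017 of all genes passed. With both restricted diets together 0 of 84 passed (2.75% of all genes called), with 2 higher and 23 lower at an unadjusted p under 0.05 (26.4% of all genes in either direction), and the genes of smallest p were Slc1a4 (-0.59, adjusted p 0.0983), Herpud1 (0.51, adjusted p 0.102) and Slc3a2 (-0.73, adjusted p 0.103). In low protein against caloric restriction, and in the difference between the tissues, 0 of 84 passed.

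**Figure D4:**
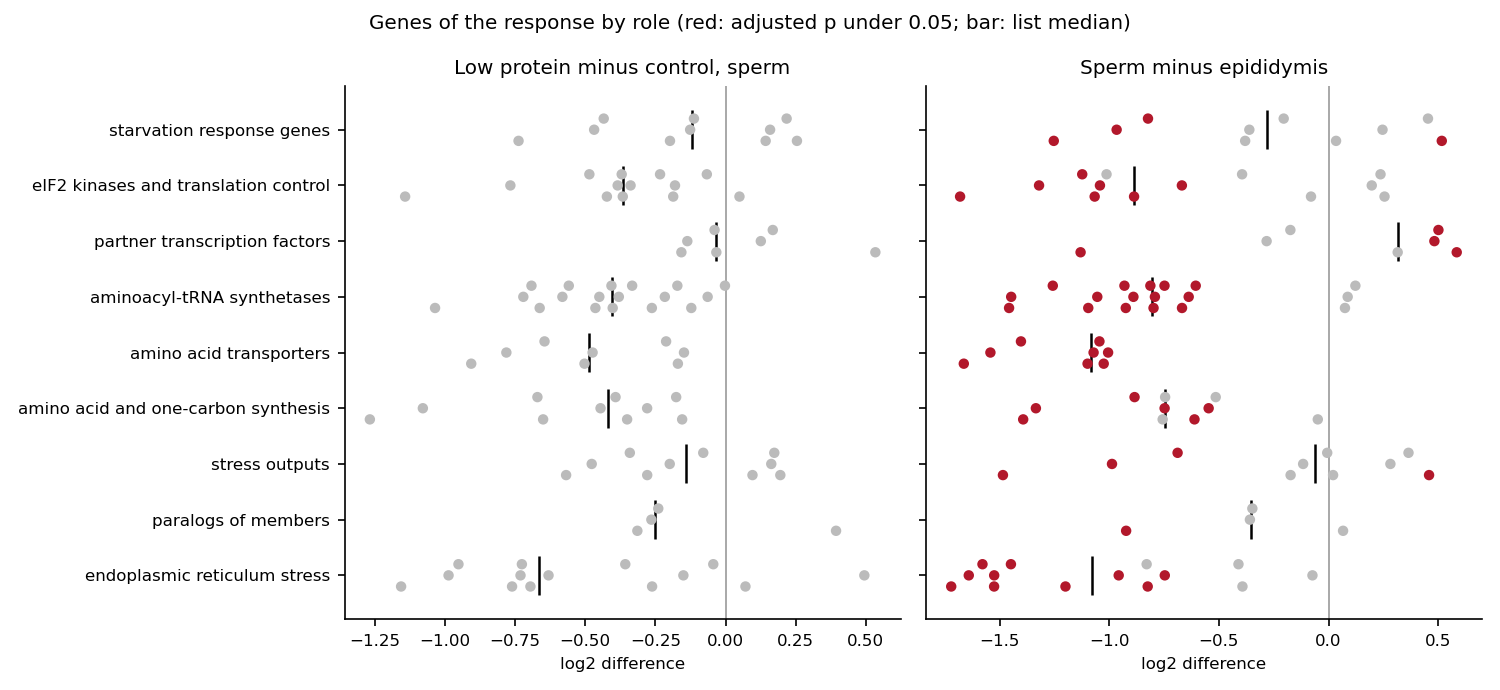
Log2 differences (horizontal axes) of the 10 genes and of the tested genes of 8 pathway lists, by list, for low protein minus control sperm (left) and sperm minus epididymis (right); each point is a gene, red points have an adjusted p under 0.05 and bars are list medians. No gene is red on the left, where transporters, synthetases and synthesis genes all lie below 0, and 8 of 8 transporters are red and below 0 on the right.

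Between sperm and epididymis 4 of the 84 pathway genes rose and 51 fell, with a median of -0.80 against -0.08 over all genes. Over all genes 18.4% were called higher and 30.1% lower, which are the shares to set beside the list counts that follow. All 8 transporters fell, among them Slc38a2 by 1.66 ± 0.23 (-1.66, adjusted p by limma 0.00066), Slc1a5, a glutamine transporter, by 1.40 (-1.40 ± 0.15), and Slc7a5, the large neutral amino acid transporter, by 1.10 (-1.10 ± 0.14). Slc7a5 lay between 7.08 and 7.49 on the 6 sperm arrays and at 8.36 and 8.37 in epididymis, with no overlap. The 8 transporters also fell after cyclic loess and after quantile normalization. Of 18 synthetases 15 fell, with Rars at -1.45 ± 0.18, Tars at -0.89 ± 0.18 and Eprs at -0.93 ± 0.19. The count was 12 after cyclic loess, where 3 rose, and 8 after quantile normalization, where 1 rose.

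Of 10 synthesis genes 6 fell in sperm (4 after cyclic loess, 3 after quantile normalization), among them the aminotransferase Got1 (-0.89 ± 0.16), Cth of cysteine synthesis (-1.39 ± 0.28) and Aldh18a1 of proline synthesis (-0.61 ± 0.14). Of 13 genes for eIF2 kinases and translation control 7 fell (7 after cyclic loess, where 2 rose, and 5 after quantile normalization, where 1 rose), with Dnajc3, an inhibitor of these kinases, at -1.68 ± 0.20, Eif2ak2, the kinase PKR, at -1.32 ± 0.16 and Eif2b3 at -1.07 ± 0.14. Of 14 endoplasmic reticulum stress genes 10 fell (8 after either normalization, with 1 higher after quantile normalization), with Dnajb9 at -1.72 ± 0.18, Sdf2l1 at -1.45 ± 0.20 and Manf at -0.96 ± 0.15. The transcription factors divided: Jun fell (-1.13 ± 0.14), while Atf5 (0.59 ± 0.15), Jdp2 (0.48 ± 0.15) and Cebpb (0.50 ± 0.17) rose, Cebpb being named after its value was seen. Atf5, a relative of Atf4 that is also controlled at translation, lay between 7.23 and 7.69 in sperm and at 6.93 and 6.92 in epididymis. Among stress outputs Sqstm1 and Map1lc3b of autophagy fell (-1.49 ± 0.25 and -0.99 ± 0.17), as did Vldlr (-0.69 ± 0.15), and Bbc3, named after its value was seen, rose (0.46 ± 0.16). Sesn1 fell by 0.92 (-0.92 ± 0.16), the 1 of 4 paralogs to pass. With the low protein epididymis array left out, so that 1 remained, 19 of the 84 genes passed in place of 55, and 2748 of all 13587 passed in place of 6594. Then 6 of 8 transporters fell, 1 of 18 synthetases, 0 of 10 synthesis genes, 4 of 13 genes for eIF2 kinases and translation control and 4 of 14 endoplasmic reticulum stress genes. None of the partner factors rose in that fit and 1 fell, and among stress outputs 0 rose and 2 fell.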

How the data were processed

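The authors' deposited table holds log2 intensities from Affymetrix gene arrays, produced by RMA according to the submitters' processing notes, whose version is not stated there. RMA puts arrays on a nearly common distribution, so a change in total RNA is not visible. Of 33660 probe sets, 21222 carried 1 gene, 1541 several and 10897 were unnamed here. Symbols came from the platform annotation, updated for 21137 probe sets through a GRCm38.p6 RefSeq table. A gene with several probe sets was represented by the brightest on average, and the lowest 30% by mean (log2 5.69 and below) were left out.

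Tests used limma 3.58.1 in R 4.3.3 (lmFit, eBayes, two-sided) with Benjamini-Hochberg adjustment over 13587 genes at 0.05, and were tested on simulated data. Diet fits used the 6 sperm arrays, with the lone caloric restriction array assumed to vary like the others. Nothing in the labels says that replicates were separate animals, so a p-value here reflects sample-to-sample spread that may be technical. No 2 arrays were identical. The number of arrays limits the precision. Members, lists and tests were chosen with earlier results of these data known. From each list the up to 3 genes of smallest p per comparison could be named; those given were picked from them. Alternatives were other normalizations, filters, probe set rules, eBayes settings and thresholds, and leaving out single arrays; leaving out epididymis or caloric restriction arrays, and list counts under alternatives, were added after seeing the data.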

Additional observations from a re-analysis of the deposited data

How the results depend on the processing

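Of the 6 counts of the 10 genes past the threshold, 2 changed under an alternative: low protein against control ran from 0 to 3 when single arrays were left out (3 without low protein replicate 1), and sperm against epididymis from 1 to 5 (1 without the low protein epididymis array). Single gene changes that were not past the threshold changed sign in 24 fits, and the causes were not tested. After cyclic loess the value was 0.042 for Slc7a11 in low protein, 0.061 for Trib3 and 0.017 for Chac1 in caloric restriction and 0.073 for Chac1 in the difference between tissues, where quantile normalization gave 0.067. Leaving out single arrays, low protein ran from -0.34 to 0.12 for Trib3 and from -0.35 to 0.076 for Slc7a11, and caloric restriction from -0.25 to 0.0044 for Chac1 and from -0.063 to 0.10 for Ddit3. The restricted diets ran from -0.19 to 0.035 for Trib3 and from -0.074 to 0.18 for Chac1. Low protein against caloric restriction ran from -0.29 to 0.16 for Trib3, from -0.053 to 0.0035 for Sesn2, from -0.52 to 0.27 for Atf4 and from -0.70 to 0.28 for Psat1. Sperm against epididymis ran from -0.12 to 0.21 for Atf3 and from -0.46 to 0.023 for Sesn2, and the difference between tissues from -0.21 to 0.039 for Chac1, from -0.17 to 0.25 for Slc7a11 and from -0.89 to 0.093 for Psat1.

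Counts over all genes were less stable. Low protein gave 592 at a threshold of 0.10 and 5155 without low protein replicate 1. Caloric restriction gave 487, 298 and 326 without control replicates 1, 2 and 3 and 2021 without either low protein array. The restricted diets gave 197 with the lowest 50% of genes left out, 168 with a trend, 1091 at 0.10, 1428 and 654 without low protein replicates 1 and 2, and 0 without any 1 control or the caloric restriction array. Low protein against caloric restriction gave 114 after cyclic loess, 23 with a trend, 131 at 0.10, and 1956 and 317 without low protein replicates 1 and 2. The difference between tissues gave 1639 without low protein replicate 1. No paired analysis was possible because the labels give no replicate numbers, and the numbers used here only name arrays.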
